A study of Mus musculus with 12 samples.

Results

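Imprinted loci that carry long noncoding RNAs (lncRNAs) were examined for R-loops in HEPA1-6 cells and in mouse liver. The set held 10 genes of 4 loci: Airn and Igf2r, H19 and Igf2, Kcnq1ot1 and Cdkn1c, and Dlk1, Meg3, Rian and Mirg. These are 10 of the 34614 protein-coding and lncRNA genes in the gene table, and 6 of the 10 are lncRNA genes. Peaks were assigned to a gene if they shared at least 1 bp with the gene body or its flanks of 1 kb. Under this rule 21 of 28717 HEPA1-6 peaks and 16 of 14908 liver peaks belonged to the loci. HEPA1-6 is a mouse hepatoma cell line, and the mice described in the labels are C57/Bl6, with no age given. Both sources carry the labels hepatocyte, WT and no treatment, and no step that isolates hepatocytes from liver is described. Each source had 3 groups of 2 libraries, namely an immunoprecipitate with the antibody S9.6, the same with RNase H1 digestion, and input DNA. Peaks were deposited as 1 merged list per source, so no difference between the lists has a replicate check, and sequencing depth is unknown. The RNase H1 libraries were not analysed here.

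An R-loop forms when RNA hybridises to its DNA template and leaves the opposite DNA strand unpaired, and S9.6 binds the RNA-DNA hybrid. Imprinted genes are expressed from the allele of a single parent. Airn and Kcnq1ot1 are long, mostly unspliced transcripts made from the paternal allele, and each silences neighbouring genes on the chromosome it comes from. Airn starts inside Igf2r and runs antisense to it, and Kcnq1ot1 starts inside Kcnq1 and runs antisense to that gene. H19 and the RNAs Meg3, Rian and Mirg are made from the maternal allele, and Igf2 and Dlk1 from the paternal one. H19, Igf2 and Dlk1 are known for high expression in fetal liver and their silencing after birth. The Rian region is known as a site where adeno-associated virus (AAV) vectors integrate in mouse liver tumours, which ties the locus to the subject of the series, AAV-mediated genome editing. The peak lists do not separate the alleles.

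Promoter sequences are shown for 4 members, of which Airn and Kcnq1ot1 had peaks over the window and Igf2r and Meg3 had none. Each runs 5′ to 3′ on the strand of the gene, from 250 bases before to 50 after a RefSeq start site (RefSeq, GRCm38.p6), with runs of 4 or more G or C in capitals. Such runs, searched as GGGG on both strands, occur in 86.4% of the 32851 promoter windows of the table.
Airn, chr17:12741061-12741360, plus strand: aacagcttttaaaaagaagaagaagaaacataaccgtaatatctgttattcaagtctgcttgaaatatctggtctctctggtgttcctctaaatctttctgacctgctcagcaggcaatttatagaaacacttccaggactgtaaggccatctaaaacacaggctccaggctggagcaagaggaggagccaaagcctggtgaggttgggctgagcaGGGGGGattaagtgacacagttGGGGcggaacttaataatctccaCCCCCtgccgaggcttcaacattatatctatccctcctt
Kcnq1ot1, chr7:143296498-143296797, minus strand: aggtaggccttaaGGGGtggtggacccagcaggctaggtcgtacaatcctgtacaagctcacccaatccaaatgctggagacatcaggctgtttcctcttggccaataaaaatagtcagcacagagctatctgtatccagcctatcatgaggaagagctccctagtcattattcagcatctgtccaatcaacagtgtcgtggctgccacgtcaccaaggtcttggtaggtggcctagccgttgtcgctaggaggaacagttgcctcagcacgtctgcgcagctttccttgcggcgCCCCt
Igf2r, chr17:12769657-12769956, minus strand: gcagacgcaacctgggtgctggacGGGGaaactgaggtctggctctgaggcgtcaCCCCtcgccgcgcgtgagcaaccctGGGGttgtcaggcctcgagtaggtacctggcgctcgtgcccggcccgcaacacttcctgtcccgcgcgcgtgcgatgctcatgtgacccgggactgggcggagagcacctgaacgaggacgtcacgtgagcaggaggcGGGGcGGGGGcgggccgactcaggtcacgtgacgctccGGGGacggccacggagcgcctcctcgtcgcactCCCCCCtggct
Meg3, chr12:109540746-109541045, plus strand: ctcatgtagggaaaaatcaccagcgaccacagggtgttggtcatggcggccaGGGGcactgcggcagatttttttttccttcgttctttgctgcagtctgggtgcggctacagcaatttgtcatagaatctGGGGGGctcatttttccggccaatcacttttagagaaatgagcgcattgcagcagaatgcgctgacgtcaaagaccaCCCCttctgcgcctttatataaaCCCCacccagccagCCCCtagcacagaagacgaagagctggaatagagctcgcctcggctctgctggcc

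Peaks in both lists covered the Airn window (300 of 300 bases) and most of the Kcnq1ot1 window (250 of 300). None of the 10 windows listed for Igf2r, Igf2, Dlk1, Meg3, Rian and Mirg was touched, and Igf2 has 4 of these windows and Meg3 has 2. Over all promoter windows, 15.3% were touched by a HEPA1-6 peak and 9.85% by a liver peak. The windows with peaks were not the GC-rich ones. GC content was 45.7% at Airn and 53.3% at Kcnq1ot1, against 70.7% at Igf2r, which exceeded 91.4% of all windows. The ratio of observed to expected CpG was 0.19 at Airn, 0.42 at Kcnq1ot1 and 0.91 at Igf2r, with a median of 0.38 over all windows. GC skew, (G - C)/(G + C) on the strand of the gene, was 0.01 at Airn and -0.04 at Kcnq1ot1, near the median of 0.01. The highest skews among the members, 0.32 at the second Meg3 start and 0.31 at Dlk1, stood at windows without a peak. These values describe the windows only. The peaks over the Airn start reached 4.87 kb (HEPA1-6) and 1.63 kb (liver) past it. Those over the Kcnq1ot1 start reached 19.2 kb and 2.22 kb past it. Sequence under the rest of these peaks was not examined.

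In HEPA1-6, 3 of the 10 members held a peak, and so did the same 3 in liver: Airn, Igf2r and Kcnq1ot1. The background over all protein-coding and lncRNA genes was 31.6% in HEPA1-6 and 22.1% in liver. The members' share of 30% (Wilson 95% interval 10.8 to 60.3%) therefore lay near the background in both lists. Among lncRNA genes alone the background was 13.6% and 8.97%, and 2 of the 6 lncRNA members held peaks. Within 1 kb of the 5′ end, 3 members had a HEPA1-6 peak and 2 a liver peak, where the share over genes of known strand was 19.2% and 12.9%. Cdkn1c, whose strand is not given, could not be placed in this count. Igf2r counted in HEPA1-6 only, through a peak with a score of 16 upstream of its body, inside Airn. All other 7 members, H19, Igf2, Cdkn1c, Dlk1, Meg3, Rian and Mirg, had none in either list. Because a peak under the authors' threshold is not listed, these genes were without a called peak at this depth, which does not show that R-loops are absent.

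As a check of the source labels, 20 hepatocyte marker genes were set beside 8 proliferation genes. In each list 7 of the 20 hepatocyte genes held a peak, among them Alb, Apoe and Trf, while Apoa1, Ttr and Fgb had none. This share of 35% lay near the 42.0% (HEPA1-6) and 29.7% (liver) of all protein-coding genes. It therefore gives no support to the hepatocyte label. Of the proliferation genes, 7 had peaks in HEPA1-6 (87.5%) and 6 in liver (75%), Mki67, Top2a and Cdk1 included. Both shares lay above those of all protein-coding genes. None of 4 endothelial markers held a peak, and of 4 markers each for Kupffer and other immune cells, for stellate cells and for biliary cells, 1 per cell type did in both lists. Peaks mark hybrids rather than transcript levels. In such bulk samples, fewer cells with a hybrid and fewer hybrids per cell cannot be told apart, and the part of cell types in the results below was not tested. A further 3 of the fetal liver and hepatoma markers are members of these loci (H19, Igf2 and Dlk1), and of the remaining ones Afp held peaks and Gpc3 none.

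Kcnq1ot1 (chromosome 7, 143213111 to 143296547, minus strand, gene ID 63830) carried more peaks than any other member. It held 11 peaks in HEPA1-6 and 13 in liver, and their scores ranged from 14 to 102 and from 15 to 96. The score is the authors' value per peak, with no stated scale, and serves here to rank peaks within a list, where its median was 21 in HEPA1-6 and 22 in liver. Peaks covered 61.1% of the Kcnq1ot1 body in HEPA1-6 and 32.3% in liver. Of 5859 genes of 50 kb or more, 17 were covered to a larger share in HEPA1-6 and 8 in liver. The median of these genes was 0% in both lists, and their 90th percentiles were 10.4% and 2.26%.

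Peak numbers were set against genes of like length. Among 1645 genes within 20% of the length of Kcnq1ot1, 46.0% held a HEPA1-6 peak and 32.3% a liver peak. As many peaks as Kcnq1ot1 or more were held by 99 of them in HEPA1-6 (6.02%, itself included) and by 8 in liver (0.486%). Of 12727 lncRNA genes, Pvt1 and Lncpint had more HEPA1-6 peaks (41 and 12), and Pvt1 alone had more liver peaks (42). Kcnq1ot1 was the only member with more peaks in liver than in HEPA1-6, but among the 50% of each list with the higher scores the order turned, with 7 in HEPA1-6 and 6 in liver. Its liver peaks were narrower, with a median width of 1543 bp against 2242 bp, and 4 of them lay under a single HEPA1-6 peak of 19404 bp.

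**Figure D1:**
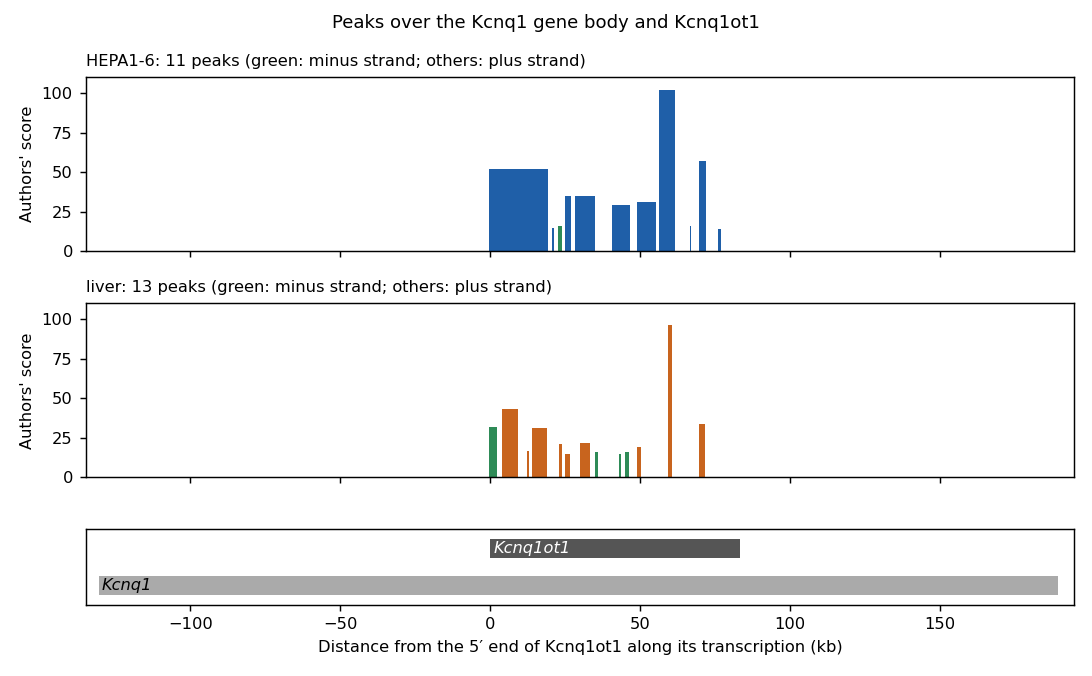
Peaks over the whole Kcnq1 body, drawn to scale by distance from the 5′ end of Kcnq1ot1 in kb (x axis) and by the authors' score (y axis; scores are not comparable between the lists), with gene bodies in the lowest panel. All 11 HEPA1-6 and all 13 liver peaks lie over Kcnq1ot1, and the rest of Kcnq1 is empty but for 200 bases beside the Kcnq1ot1 start.

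The peaks over Kcnq1 lay almost wholly within the part it shares with Kcnq1ot1. Kcnq1, which codes for a potassium channel subunit, spans 320 kb on both sides of Kcnq1ot1, and each of its 11 HEPA1-6 and 13 liver peaks touched the 83.4 kb shared with Kcnq1ot1. In the other 237 kb of Kcnq1, 0.0845% of the bases lay in a peak in either list. These were the 200 bases by which the first peak reached beyond the 5′ end of Kcnq1ot1. At the other end, the last HEPA1-6 peak stopped 77.2 kb from the 5′ end and the last liver peak 71.8 kb from it, within the annotated length of 83.4 kb.

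Within Kcnq1ot1 the covered share was highest in the first 10 kb, at 100% in HEPA1-6 and 74.7% in liver. In HEPA1-6 a single peak (143277344 to 143296747, score 52) filled the first 19.2 kb. In liver the same stretch held 4 peaks with scores of 32, 43, 17 and 31 in order from the 5′ end. The HEPA1-6 share stayed above 50% in each 10 kb bin up to 60 kb, with 86.9% between 50 and 60 kb. In liver it was 9.7% in that bin. The highest score of the locus fell at the same place in both lists, 56.5 to 61.6 kb from the 5′ end in HEPA1-6 (143234906 to 143240015, score 102) and 59.2 to 60.8 kb in liver (143235771 to 143237313, score 96). These scores exceeded 97.6% and 97.7% of their lists. The second highest in HEPA1-6, 57, lay 69.7 to 71.9 kb from the 5′ end (143224631 to 143226872), and a liver peak with a score of 34 ended at the same base.

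**Figure D2:**
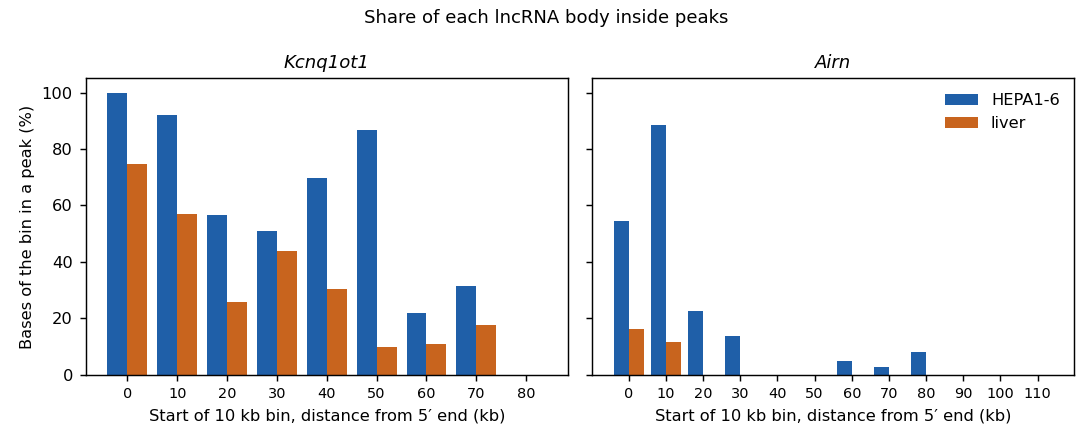
Percent of bases inside a peak (y axis) in 10 kb bins from the 5′ end (x axis, kb) of Kcnq1ot1 and Airn, with 1 bar per list and no replicates; the last bin of each gene is shorter (3437 and 8574 bp). Coverage runs along Kcnq1ot1 in both lists, whereas at Airn it is highest in the first 20 kb.

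Airn (chromosome 17, 12741311 to 12859884, plus strand, gene ID 104103) held 10 HEPA1-6 peaks and 3 liver peaks. With the HEPA1-6 list shortened to the length of the liver list, by score, it held 4 and 3. The peak with the highest score at Airn in each list covered the 5′ end and began at the same base, 947 bases before the annotated start. It ran from 12740364 to 12746180 in HEPA1-6 (score 95, above 97.2% of the list) and from 12740364 to 12742940 in liver (score 55, above 92.9%). The other HEPA1-6 scores were 58, 18, 27, 23, 16, 11, 18, 16 and 17 in order from the 5′ end. The other liver peaks scored 16 and 15 and lay 17.5 to 19.7 kb from the 5′ end, both inside the HEPA1-6 peak at 12756468 to 12762471. Peaks thus marked the start of Airn in both lists, and most of those farther along scored under the list median.

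Most of the covered bases lay in the first 30 kb of Airn. In HEPA1-6 coverage was 54.3% in the first 10 kb and 88.4% in the next, 22.6% between 20 and 30 kb and 13.8% between 30 and 40 kb. Beyond 40 kb only 2 peaks were called, and the last ended 80.8 kb from the start. Liver had 16.3% and 11.7% in the first bins and no peak beyond 20 kb. Over the whole body 16.4% of the bases lay in HEPA1-6 peaks and 2.36% in liver peaks. Among 1195 genes within 20% of the length of Airn, 46.2% held a HEPA1-6 peak and 32.4% a liver peak. As many peaks as Airn or more were held by 101 (8.45%) in HEPA1-6 and 110 (9.21%) in liver, itself included. By the sum of both lists 84 of these genes had more than the 13 of Airn, led by Cyrib with 42 and by Arid2, Lrrfip1 and Zmynd8 with 39 each.

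**Figure D3:**
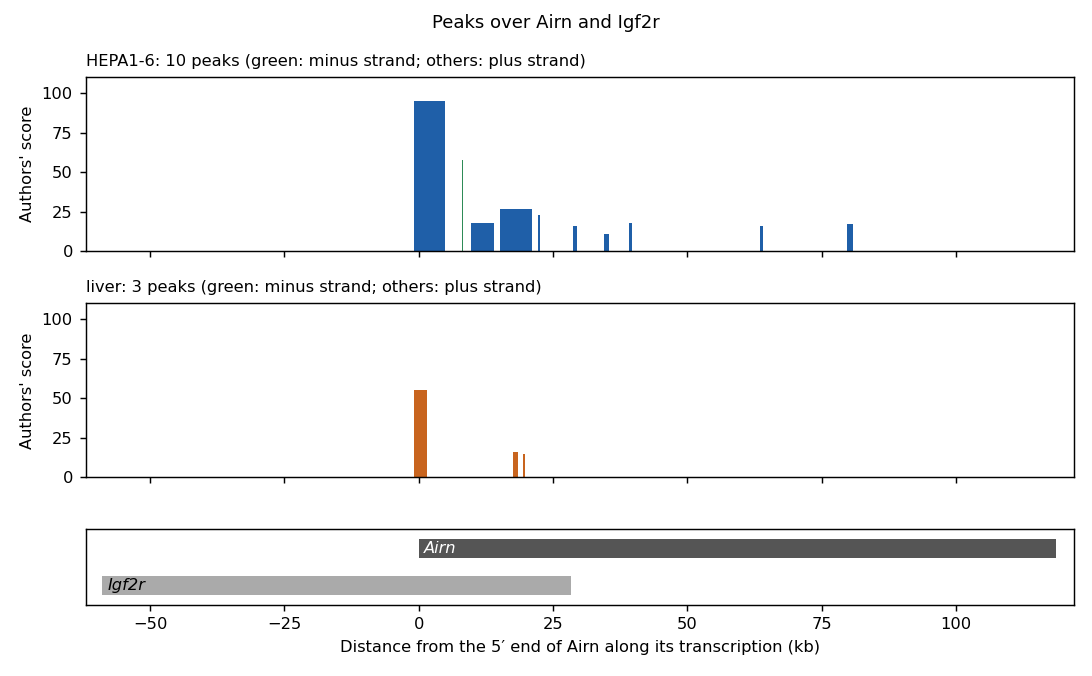
Peaks over Airn and Igf2r, drawn to scale by distance from the 5′ end of Airn in kb (x axis) and by the authors' score (y axis; not comparable between the lists), with gene bodies in the lowest panel. Peaks gather in the first 25 kb of Airn, inside Igf2r, and the part of Igf2r left of the Airn start is empty but for the first peak's 947 bases.

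Igf2r codes for the receptor that carries mannose 6-phosphate proteins to lysosomes and removes IGF2 from the cell surface. Of genes within 20% of its length, 46.1% held a HEPA1-6 peak and 31.9% a liver peak. The peaks of Igf2r were also those of Airn. All 5 HEPA1-6 peaks and all 3 liver peaks that overlapped the Igf2r body touched the 28.4 kb it shares with Airn, where 55.6% and 9.86% of the bases were covered. In the other 58.9 kb, 1.61% of the bases were covered in each list, which are the 947 bases before the Airn start. A further HEPA1-6 peak (12770085 to 12770819, score 16) counted for Igf2r only through the 1 kb flank. It lay upstream of the GC-rich Igf2r promoter shown above, inside Airn, and liver had no peak there. Neither list had a peak at Slc22a2, Slc22a3, Mas1 or Plg, which lie in the same region. Of these, Slc22a2 and Slc22a3 are known targets of Airn silencing, which was not measured in HEPA1-6 or liver here. Farther along chromosome 17, Wtap, which codes for a subunit of the RNA methyltransferase complex, held 4 HEPA1-6 peaks and 2 liver peaks (top scores 66 and 43), and Sod2, a mitochondrial superoxide dismutase gene, held 1 in each.

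The deposited strand of the peaks did not follow the lncRNA at both loci. How a strand was given to a peak is not stated in the sources used here. At Airn 9 of 10 HEPA1-6 peaks and all 3 liver peaks carried the plus strand of Airn, and the exception was the 263 bp HEPA1-6 peak with a score of 58, on the strand of Igf2r. At Kcnq1ot1 only 1 of 11 HEPA1-6 peaks and 4 of 13 liver peaks carried its minus strand, and all others the plus strand. The plus strand is that of Kcnq1, to which Kcnq1ot1 runs antisense. Over all peaks that touched a single gene of known strand, 93.2% in HEPA1-6 and 90.4% in liver had the strand of that gene. Where a peak touched a protein-coding gene and an lncRNA gene of opposite strands, 76.9% and 74.0% had the strand of the protein-coding gene. The Kcnq1ot1 peaks are not in these shares, because the sources used here give no strand for Kcnq1. The plus strand made up 51.3% of all stranded HEPA1-6 peaks and 49.5% of liver peaks, and 49.4% and 49.0% of those over 2 genes of opposite strands. Over all member genes, 40.7% of 27 gene and peak pairs in HEPA1-6 (Wilson interval 24.5 to 59.3%) and 36.8% of 19 in liver (19.1 to 59%) matched in strand. Peaks over both Airn and Igf2r were counted for each, and since these genes are antisense, such a peak matches only 1 of them. Of HEPA1-6 pairs whose peak overlapped 1 gene body only, 5 of 6 (83.3%) matched, and liver had no such peak. Each of these peaks lay inside Airn, because every Kcnq1ot1 peak also overlapped Kcnq1. The mismatch was the peak at 12770085 to 12770819, inside Airn and on its strand, counted for Igf2r through the 1 kb flank.

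The lists also differed in strand at Kcnq1ot1. Of 13 overlapping pairs of a HEPA1-6 and a liver peak there, 5 had opposite strands, against 14.0% of the 10990 such pairs in the genome. The liver peaks of these 5 pairs scored 16, 15, 16, 21 and 32, where the liver list median was 22. Those starting at 143250064 and 143253018 lay under the same HEPA1-6 peak, so the pairs are not independent. The liver peak at the Kcnq1ot1 start (143294325 to 143296747) had the minus strand of the lncRNA, while the HEPA1-6 peak that ended at the same base had the plus strand. All 3 pairs at Airn had the same strand.

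Most positions found in liver were also in the HEPA1-6 list. All 16 liver peaks of these loci overlapped a HEPA1-6 peak, a share of 100% (Wilson interval 80.6 to 100%), against 75.9% of all liver peaks. Of the 21 HEPA1-6 peaks, 10 overlapped a liver peak (47.6%, 28.3 to 67.6%), against 31.8% of all HEPA1-6 peaks. These overlaps count from 1 bp, and only 4 peaks of each list were shared when 50% of both peaks had to overlap. In bases, HEPA1-6 peaks held 100% of the liver peaks at Airn and 97.3% at Kcnq1ot1, where the share over the whole lists was 83.0%. The reverse shares were 18.4% at Airn and 51.6% at Kcnq1ot1. The 11 HEPA1-6 peaks without a liver partner comprised 8 of 10 at Airn and 3 of 11 at Kcnq1ot1. In the shortened HEPA1-6 list 4 of the 10 at Airn remained. Those with scores of 95 and 27 had a liver partner, and those with scores of 58 and 23 had none. Peaks of a gene are neighbours and not independent, and the longer HEPA1-6 list has more chances of an overlap.

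**Figure D4:**
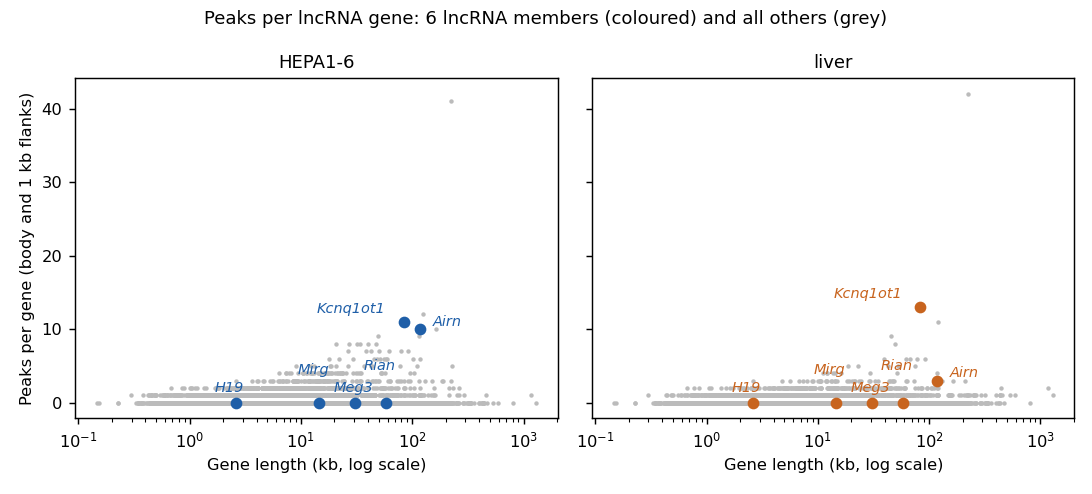
Number of peaks per lncRNA gene (y axis) against gene length in kb (log x axis) for all 12727 lncRNA genes (grey) and the 6 lncRNA members (coloured), by list. Kcnq1ot1 stands at 11 and 13 peaks and Airn at 10 and 3, while H19, Meg3, Rian and Mirg lie at 0 in both.

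The edges of the peaks bear on how finely these positions can be read. In both lists the peak at the Kcnq1ot1 start ended at 143296747, 200 bases before the gene start and at base 5 of a TGTACA (143296743 to 143296748), the site that the restriction enzyme BsrGI cuts after its first base on each strand. The 30 bases around it on the strand of Kcnq1ot1 (chr7:143296731-143296760) are shown with the site in capitals.
Kcnq1ot1 peak edge: gtcgtacaatccTGTACAagctcacccaat
TGTACA is its own reverse complement and occurs in 4.75% of promoter windows. The published R-loop mapping method that the labels cite fragments DNA with restriction enzymes, as background, although the labels do not name them. Sites of 5 enzymes known from such protocols were searched in all promoter windows: AAGCTT (HindIII), AATATT (SspI), GAATTC (EcoRI), TGTACA (BsrGI) and TCTAGA (XbaI). Of 840 HEPA1-6 peak edges inside these windows, 451 (53.7%, Wilson interval 50.3 to 57%) fell on the exact base where a fragment cut by them, with its ends filled in, would begin or end, and so did 329 of 778 liver edges (42.3%, 38.9 to 45.8%). Such bases made up 0.115% of the positions searched. The enzymes were chosen after peak edges had been seen, and their part in the peak widths was not tested. Over the genome 46.1% of 11455 overlapping pairs shared a start or an end to the base, and at the loci 1 pair at Airn and 3 at Kcnq1ot1 did. The base at which the first Airn peak began lay outside the sequences used here.

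The H19 and Igf2 locus on chromosome 7 held no peak over either gene. H19 (142575530 to 142578146, gene ID 14955) is an abundant fetal lncRNA and the host of Mir675, and Igf2 (142650768 to 142666816, gene ID 16002) codes for a fetal growth factor. The nearest peaks lay 30.4 kb (HEPA1-6) and 32.7 kb (liver) from H19, and 23.8 kb and 83.6 kb from Igf2. Between the genes HEPA1-6 had 3 peaks, with scores of 18 and 17 near the predicted lncRNA gene Gm33148 and of 27 for a peak without strand (142625338 to 142627009) that touched no gene. Liver had none between them, and its nearest peak beyond Igf2 (142750418 to 142751299, score 21) also had no strand. Of genes within 20% of their lengths, 23.2% (H19) and 36.5% (Igf2) held a HEPA1-6 peak and 16.1% and 24.1% a liver peak. Neighbouring Mrpl23, a mitochondrial ribosomal protein gene, held 3 peaks in each list, and Ins2, Th and the lncRNA gene Nctc1 had none.

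Cdkn1c (143458339 to 143461059, gene ID 12577), a cell cycle inhibitor silenced on the paternal allele where Kcnq1ot1 is made, had no peak, where 23.3% of genes within 20% of its length held a HEPA1-6 peak and 16.4% a liver peak. Its nearest peak was 51.4 kb away in both lists, and it lay in an interval of 216 kb without a peak that ran from the start of Kcnq1ot1 to Nap1l4. Slc22a18 and Phlda2, further imprinted genes of that interval, also had none. Peaks resumed at Nap1l4 (5 in HEPA1-6 and 4 in liver) and Cars (8 and 3). On the other side of Kcnq1ot1, Cd81 held 4 peaks in each list, and the peak it shares with Tssc4 and Trpm5 scored 194 and 103, above every Kcnq1ot1 peak of its list. Ascl2, a placental regulator, held 1 HEPA1-6 peak (score 44) and no liver peak.

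The Dlk1 to Mirg domain on chromosome 12, 297 kb long, was without a peak in both lists. Dlk1 (109452485 to 109463336, gene ID 13386) codes for a transmembrane protein related to the Notch ligands. Meg3 (109540996 to 109571729, gene ID 17263), Rian (109603945 to 109661716, gene ID 75745) and Mirg (109734981 to 109749458, gene ID 100040724) are lncRNA genes that host small nucleolar RNAs and microRNAs. The domain holds 57 microRNA hairpins of the RefSeq table, of which 3 lie in Rian, Mir341 among them, and 10 in Mirg. Of genes within 20% of the length of Dlk1, Meg3, Rian and Mirg, 32.1%, 39.3%, 43.2% and 35.2% held a HEPA1-6 peak, and 21.5%, 26.7%, 29.7% and 23.8% a liver peak.

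The domain lay within a wider empty interval of 1.61 Mb in HEPA1-6 (between 108881362 and 110490624) and 1.83 Mb in liver (between 108859272 and 110690209). These intervals enclosed 24 and 30 protein-coding and lncRNA genes, among them Begain, Rtl1 and Dio3. The nearest peaks were 571 kb from Dlk1, 660 kb from Meg3, 723 kb from Rian and 741 kb from Mirg in HEPA1-6, and 593, 682, 745 and 876 kb in liver. For Rian, 7.07% of all genes lay as far or farther from a HEPA1-6 peak and 6.86% from a liver peak, and on chromosome 12 alone 11.2% and 12.1%. Chromosome 12 had few peaks overall: its genes had one in 21.4% of cases in HEPA1-6 and 11.7% in liver, against 35.9% and 24.6% on chromosome 17 and 32.3% and 23.1% on chromosome 7. The part of the chromosome in the empty domain was not tested. Near the edges of the interval, Wars, a tRNA synthetase gene, held 3 HEPA1-6 peaks and 1 liver peak, and Ppp2r5c held 3 and 0.

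**Figure D5:**
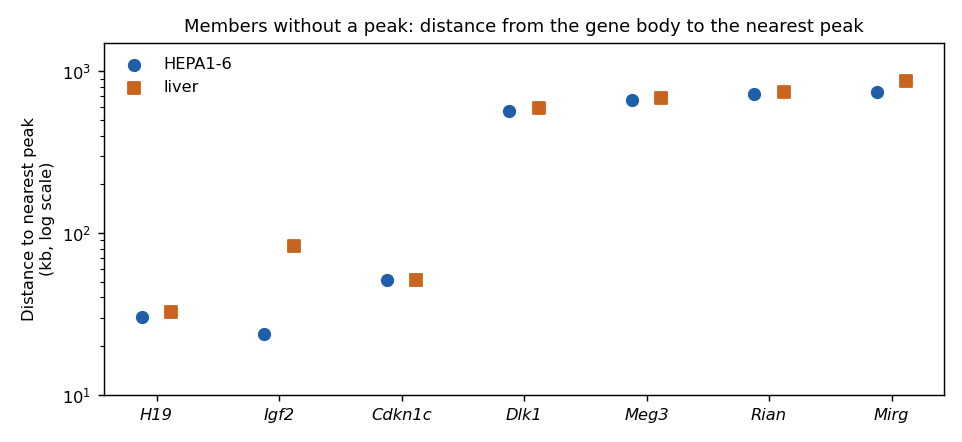
Distance in kb (log y axis) from the body of each of the 7 members without a peak (x axis) to the nearest peak of each list. H19, Igf2 and Cdkn1c lie 23.8 to 83.6 kb from a peak, and the 4 genes of chromosome 12 lie 571 to 876 kb away.

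Other imprinted genes were counted in the same way. Of 48 further imprinted genes listed, 46 were in the gene table. A HEPA1-6 peak was held by 17 of them (37%, Wilson interval 24.5 to 51.4%) and a liver peak by 12 (26.1%, 15.6 to 40.3%), near the 42.0% and 29.7% of all protein-coding genes. The median was 0 peaks in both lists, as it was for the members. Both lists had a peak at 11 genes and neither at 28. Atp10a, a phospholipid transporter gene, had the most HEPA1-6 peaks (13, against 1 in liver). Dcn, which codes for the proteoglycan decorin and was also on the stellate marker list, held 7 and 2. Gnas, the gene of a stimulatory G protein subunit, held 2 and 3 peaks with top scores of 103 and 84. Peg10, Mest, Peg3, Plagl1, Grb10 and Slc38a4 were without a peak in both.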

How the data were processed

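Each source had 1 deposited peak list without a header, giving chromosome, start, end, name, score and strand; the peak names state a merged immunoprecipitate against an input. Each peak has a score, deposited as whole numbers, whose scale is not given in the sources used here. CASAVA 1.8.2, cutadapt, Bowtie2, bedtools, SAMtools, MACS2 and the build mm10 are named, per the submitters' processing notes, without role or order; thresholds are not given in the sources used here. Coordinates are GRCm38 (mm10), printed 1-based. Gene bodies came from a RefSeq table (GRCm38.p6), which gives no exons. Strands came from the RefSeq promoter table (for H19, from Mir675 inside it); Cdkn1c and Kcnq1 have no entry there.

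Peaks were laid over genes with Python 3.11.15, numpy 2.4.6 and pandas 2.3.3, and the overlap code was tested on simulated intervals (simulated data with known answers). With 1 list per source no test was run, and Wilson intervals (95%) cover counting error only. The depth per library is unknown. All 10 members were named whatever their values, and neighbouring genes, further imprinted genes and cell type markers came from fixed lists. Members and lists were chosen with earlier results of these data known. The search for restriction sites was added later. Alternatives changed the flank, the overlap rule, the score threshold, the list length and the strand rule. Libraries without a peak list of their own were not analysed here.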

Additional observations from a re-analysis of the deposited data

How the results depend on the processing

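Of 71 alternatives for 16 results, 49 were classed as leaving the value the same and 22 as moving it. The first class was wide. In the higher-scoring 50%, it includes 8 further imprinted genes with a liver peak against the reported 12. It also includes a liver strand match of 25% against 36.8%. In every alternative run, Airn, Igf2r and Kcnq1ot1 held peaks in both lists and the other members had none. Using the 50% of each list with the higher scores, or shortening the HEPA1-6 list to the length of the liver list, left 11 HEPA1-6 peaks over the members and 4 at Airn in both settings, with 7 at Kcnq1ot1. The higher-scoring 50% of the liver list left 7 over the members, 1 at Airn and 6 at Kcnq1ot1, where liver no longer had more peaks than HEPA1-6, and 5 HEPA1-6 and 7 liver peaks of the members shared. These settings use fewer peaks by construction. An overlap of 50% of both peaks left 4 shared peaks in each list, so most overlapping peaks differ in width. The midpoint of the peak left 1 member with a peak at its 5′ end in each list, from 3 in HEPA1-6 and 2 in liver. This member was Igf2r in HEPA1-6, through the peak with a score of 16, and Airn in liver. The peak over the Kcnq1ot1 start dropped out in both lists, and that over the Airn start in HEPA1-6. Gene and peak pairs whose peak overlapped 1 gene body only matched in strand in 83.3% (5 of 6, HEPA1-6). Every Kcnq1ot1 peak also overlapped Kcnq1, so this rule drops all Kcnq1ot1 pairs by construction and keeps only peaks inside Airn. The value therefore cannot be set against the 40.7% over all pairs. No liver peak of the members overlapped 1 gene body only, so that value could not be given. The share of all genes with a peak was 29.8% and 20.3% without flank, 35.9% and 25.8% with 5 kb, 28.9% and 20.7% by midpoint, and 24.7% and 15.2% in the higher-scoring 50% (HEPA1-6 and liver), and 25.1% in the shortened HEPA1-6 list. No paired analysis was possible because the lists are merged over libraries, and no replicate could be left out. The unknown depth limits every statement on a missing peak.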

Other observations

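Several imprinted genes lie inside a host gene, where a peak over the inner gene also counts for the host. Mcts2, a retrogene inside H13, held 1 peak in each list (scores 61 and 34), while H13, a signal peptide peptidase gene, held 4 in HEPA1-6 and 9 in liver. H13, Gnas and Copg2 were the 3 genes of this list with more liver than HEPA1-6 peaks. Nnat and its host Blcap held 2 and 3 peaks in each list, with the same top scores of 52 and 25. Zrsr1, which lies inside Commd1, held 1 HEPA1-6 peak (score 14) and none in liver, whereas Commd1 held 2 and 1. Peg13 had no peak in either list, and its host Trappc9, 472 kb long, held 1 in HEPA1-6 (score 22). Nap1l5 had none, and its host Herc3 held 1 in HEPA1-6 (score 29). The differences between the lists were not tested.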
